A study of Mus musculus with 6 samples.

Results

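Epithelial calcium transport genes were described in mouse yolk sacs with and without a disrupted Tnrc6a gene. The set held 9 genes: the entry channels Trpv6 and Trpv5, the calcium buffers S100g and Calb1, the exit pumps and exchanger Atp2b1, Atp2b4 and Slc8a1, and the hormone receptors Pth1r and Vdr. Members were the probe sets that GEO's platform annotation pairs with these symbols: 9 probe sets of 8 genes, out of 35557 probe sets and 19938 single symbols in the table. No probe set was listed under Atp2b4, which is not analysed here. Trpv6 was chosen by its log2 signal in these same arrays, which separated the genotypes, so its genotype values are given as a description with no test. The other members were listed for their role beside it, with earlier results of these data known. The groups were 3 yolk sacs of wild-type littermates and 3 of embryos labelled homozygous for a gene trap in Tnrc6a (also called GW182), all at embryonic day 9.5 and each hybridised to a Mouse Gene 1.0 ST array. Each RNA came from the yolk sac of an individual embryo. Both genotype labels also say mixed, without an explanation, and neither the strain nor the site of the trap within the gene is given in the sources used here.

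Epithelia move calcium in steps. TRPV6 and its close relative TRPV5 let calcium in at the apical membrane, calbindins carry it through the cytosol without raising the free ion, and plasma membrane calcium ATPases and sodium-calcium exchangers push it out at the basal side. In gut and kidney, vitamin D acting through its receptor and parathyroid hormone acting through PTH1R tune this route. In the mouse, the visceral endoderm of the yolk sac is an absorptive epithelium with a brush border, and Trpv6 and S100g are known from the epithelia that pass calcium between mother and fetus. GW182, the product of Tnrc6a, works with Argonaute proteins to silence the mRNAs that microRNAs pair with.

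The deposited log2 signals had array medians of 5.19 to 5.22, and with 3 arrays a group the number of arrays sets the precision. Tnrc6a read 8.40, 7.62 and 8.29 in wild types 1 to 3, 7.81 in the library labelled mutant 1, and 5.33 and 5.20 in mutants 2 and 3. The library labelled mutant 1 thus lay within the wild-type range and went against its label, so each member's difference is given with and without it. Wild type 2 also stood apart, with the highest signal of 6 libraries for 8 of 8 parietal endoderm markers, Pth1r among them. Its means over the trophoblast and decidua markers and the mesenchyme and mesothelium markers were also the highest. These lay 0.65 and 0.45 above the wild-type mean, with mutant 2 next at 0.48 and 0.28. Markers of the labelled tissue were bright on every array, such as Afp at 12.56 to 12.68 and Cubn at 11.97 to 12.33. Over the 12 visceral endoderm markers the mean log2 signal ran from 10.16 to 10.21 in wild type and from 10.12 to 10.27 in the mutants, so the groups overlapped. Alb was the only dim marker among them. Among kidney markers, Umod was dim (3.50 to 3.90) and Nphs1 and Slc12a3 lay close to the limit (4.48 to 4.86). Of the gut genes on the same list, Lgr5 was dim (3.85 to 4.06), Fabp2 read 5.5 to 6.7 and Vil1 was bright at 9.52 to 9.99. A probe set was called dim when its mean log2 signal over the 6 arrays was under 4.29, the 30th percentile of probe sets with a gene symbol. In bulk RNA, fewer cells of a type and less RNA per cell cannot be told apart.

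The promoters of the channel genes and of S100g are shown because Trpv6 and S100g were the members whose genotype groups did not overlap, while Trpv5, the neighbour of Trpv6, is its closest relative. Each run is the 250 bases before the annotated start, 5′ to 3′ on the gene's own strand, from RefSeq on GRCm38.p6: chr6:41636406-41636655, chr6:41680724-41680973 and chrX:162964600-162964849, all on the minus strand. Capitals mark AGGTCA, the core motif of nuclear receptors, and TATAAA and CAAAGTCCA, which resembles the site of the endoderm factor HNF4A, on either strand.
Trpv6: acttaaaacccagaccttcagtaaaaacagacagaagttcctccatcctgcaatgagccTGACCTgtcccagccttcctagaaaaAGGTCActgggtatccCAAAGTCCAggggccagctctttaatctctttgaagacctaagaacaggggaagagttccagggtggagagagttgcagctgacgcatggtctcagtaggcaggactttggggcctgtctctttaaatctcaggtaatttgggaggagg
Trpv5: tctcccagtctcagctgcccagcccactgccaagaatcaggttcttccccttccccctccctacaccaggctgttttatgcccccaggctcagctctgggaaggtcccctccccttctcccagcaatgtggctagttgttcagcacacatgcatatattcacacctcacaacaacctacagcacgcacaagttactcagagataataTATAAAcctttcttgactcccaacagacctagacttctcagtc
S100g: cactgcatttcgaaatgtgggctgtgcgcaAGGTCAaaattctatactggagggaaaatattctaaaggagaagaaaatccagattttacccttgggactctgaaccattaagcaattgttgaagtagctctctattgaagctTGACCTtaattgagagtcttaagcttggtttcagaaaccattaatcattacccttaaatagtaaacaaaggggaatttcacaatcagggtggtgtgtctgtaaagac
The motifs were picked after the sequences had been read, and a match is a description of letters, not a site. AGGTCA occurred in 2 places upstream of Trpv6 and in 2 upstream of S100g, and in none of the Trpv5 window; 16.3% of 32851 windows of 300 bases (250 before and 50 after a start) held it. CAAAGTCCA stood upstream of Trpv6, from base −149 to base −141 counted from the start, and 0.475% of windows held it. TATAAA lay at bases −43 to −38 from the Trpv5 start and at bases 1 to 6 from the S100g start, just past the run shown; 13.6% of windows held it. No window of the 3 genes held AGGTCA as a direct repeat with any 3 bases between, the form that the vitamin D receptor prefers, and only 2 windows of the whole table held it. No binding was measured here.

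Trpv6, the apical entry channel, was lower in all 3 mutant libraries than in any wild type. It read 5.60, 5.55 and 5.55 in wild types 1 to 3, 5.08 in the library labelled mutant 1, and 4.72 and 4.67 in mutants 2 and 3. The wild types lay close together, and the mutants were spread more widely. The means were 5.57 ± 0.027 (SD, n = 3) and 4.82 ± 0.22 (SD, n = 3), a 1.68-fold lower level (log2 difference −0.75), or 1.83-fold lower without the library labelled mutant 1 (−0.88). Mutants 2 and 3, the libraries with little Tnrc6a signal, had the lowest Trpv6, and the library labelled mutant 1 was intermediate. These values chose the gene and support nothing beyond themselves. Its mean over all arrays, 5.20, was above the dim limit but no higher than the array medians, 5.19 to 5.22. A stricter dim filter, at the 50th percentile, removed it. The values of mutants 2 and 3 lay within the range of the kidney marker Slc12a3, 4.54 to 4.86 over the arrays, which was close to the limit. How far the size of the difference depends on this low signal was not tested.

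Trpv5, the paralogue best known from the kidney tubule, did not share this pattern. It read 4.38, 4.41 and 4.45 in wild type, 4.72 in the library labelled mutant 1, and 4.38 and 4.42 in mutants 2 and 3. Only the library labelled mutant 1 stood out, on the high side, and the groups overlapped. The log2 difference was 0.093 (limma, 95% interval −0.16 to 0.34, adjusted p = 0.999, exact two-sided permutation p = 0.7), and it was −0.014 without the library labelled mutant 1. With a mean of 4.46, Trpv5 was the member just above the dim limit, and Slc8a1, at 3.91 for its brighter probe set, was the nearest below it. Whether the probes of either channel gene also bind the other's RNA cannot be read from these files.

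**Figure D1:**
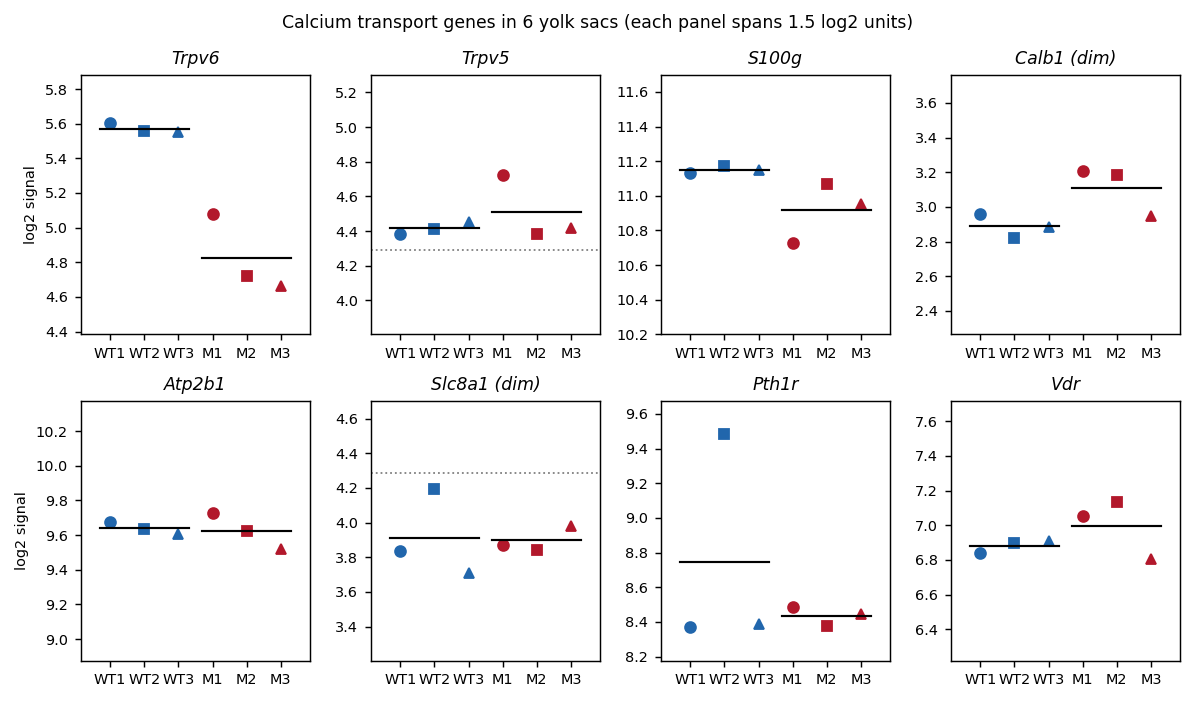
Log2 signal of the 8 calcium transport genes (y axis, each panel spanning 1.5 log2 units) in wild types 1 to 3 (WT, blue) and the libraries labelled mutant 1 to 3 (M, red), at the brighter probe set for Slc8a1; bars are group means and the dotted line is the dim limit of 4.29. Trpv6 and S100g have groups that do not overlap, and Pth1r is high in wild type 2 alone, at 9.48.

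S100g, the small cytosolic buffer calbindin-D9k, was bright in every yolk sac and slightly lower in the mutants, without passing the test. It read 11.13, 11.17 and 11.15 in wild type, 10.73 in the library labelled mutant 1, and 11.07 and 10.95 in mutants 2 and 3. The groups did not overlap, and again the wild types lay close together. The library labelled mutant 1, highest of the mutants for Trpv6, was lowest for S100g, and mutant 2 lay above mutant 3 for both genes. The means were 11.15 ± 0.021 (SD, n = 3) and 10.91 ± 0.17 (SD, n = 3), a log2 difference of −0.24 (limma, 95% interval −0.47 to 0.00080, adjusted p = 0.999; exact two-sided permutation p = 0.1, the smallest that 3 against 3 arrays can give). Without the library labelled mutant 1 the difference was −0.14, and without mutant 2 it was −0.31 (limma, adjusted p = 1.00 in both). S100g lies on the X chromosome. Xist, the RNA of the inactive X, read at least 9.63 in wild type 1, the library labelled mutant 1 and mutant 3 and 3.58 to 3.90 in the others, and with its level as a covariate the S100g difference was −0.19 (limma, adjusted p = 0.999). Calb1, the larger buffer calbindin-D28k, was dim throughout, at 2.82 to 3.21 over the 6 libraries, and its groups overlapped (log2 difference 0.22, or 0.18 without the library labelled mutant 1).

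Atp2b1, the plasma membrane calcium ATPase that pumps calcium out of most cells, was the steadiest member. It read 9.68, 9.64 and 9.61 in wild type, 9.73 in the library labelled mutant 1, and 9.62 and 9.52 in mutants 2 and 3. The mutant values lay on both sides of the wild types. The log2 difference was −0.016, and the interval of −0.21 to 0.18 bounds what these arrays could have missed (limma, 95%, adjusted p = 0.999, exact two-sided permutation p = 0.9); the sign turned with quantile normalization (0.0062), with array weights (0.0077), and without wild type 1 (0.0019) or mutant 3 (0.037). Without the library labelled mutant 1 the difference was −0.069. Slc8a1, the sodium-calcium exchanger best known from heart muscle, had 2 probe sets, both dim. The brighter read 3.84, 4.20 and 3.71 in wild type and 3.87, 3.84 and 3.98 in the mutant libraries, and the other ran from 1.95 to 2.34. Neither separated the genotypes. The difference at the brighter probe set was −0.015, or −0.0012 without the library labelled mutant 1, and its sign turned without wild type 2 (0.13) or mutant 2 (0.013).

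Pth1r, the receptor of parathyroid hormone and its related peptide, was high in wild type 2 alone. It read 8.37, 9.48 and 8.39 in wild types 1 to 3, 8.48 in the library labelled mutant 1, and 8.38 and 8.44 in mutants 2 and 3. Apart from wild type 2, all libraries lay between 8.37 and 8.48. The log2 difference of −0.31 (limma, 95% interval −0.96 to 0.34, adjusted p = 0.999, exact two-sided permutation p = 0.9) became 0.056 without wild type 2 and was −0.34 without the library labelled mutant 1. Pth1r is a known marker of parietal endoderm, and the other 7 genes of that marker list were also highest in wild type 2, by 0.82 to 4.02 on the log2 scale over the mean of the other 5 libraries, against 1.07 for Pth1r. Fst, a secreted activin binder, read 8.68 there and 4.49 to 4.87 elsewhere. Lama1, a laminin chain of the thick membrane those cells lay down, read 10.69 there and 7.69 to 8.42 elsewhere. The mean of these 7 genes was 10.11 in wild type 2 and 7.93 to 8.22 in the other libraries, and its part in the Pth1r level was not tested.

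**Figure D2:**
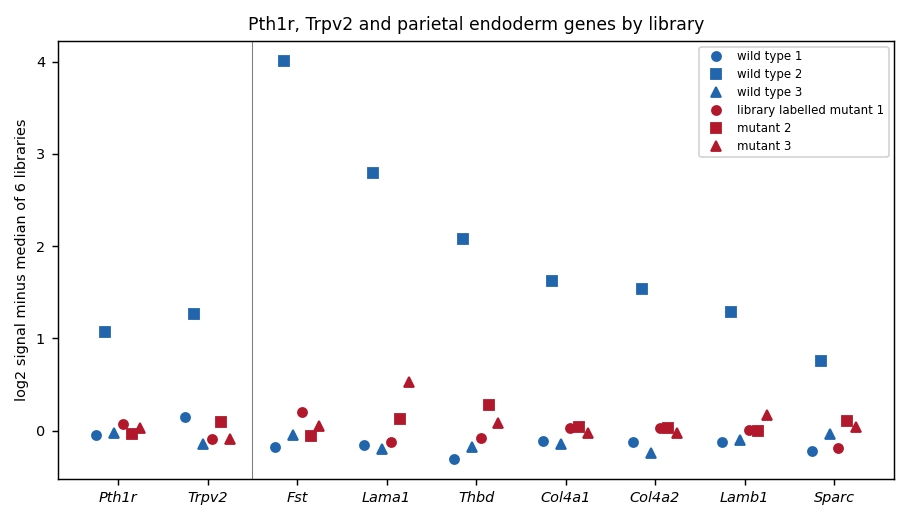
Log2 signal minus the median of the 6 libraries (y axis) for Pth1r, for Trpv2 and for 7 parietal endoderm genes (x axis), with wild types in blue, mutant libraries in red and a marker shape per replicate number. Wild type 2 is the highest library for all 9 genes, from 0.82 above the mean of the other libraries for Sparc to 4.02 for Fst.

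Vdr, the nuclear receptor for active vitamin D, had overlapping groups. It read 6.84, 6.90 and 6.91 in wild type, 7.05 in the library labelled mutant 1, and 7.13 and 6.80 in mutants 2 and 3. The library labelled mutant 1 and mutant 2 lay above every wild type and mutant 3 below, for a log2 difference of 0.11 (limma, 95% interval −0.12 to 0.35, adjusted p = 0.999, exact two-sided permutation p = 0.4). Without mutant 3, the lowest mutant, it was 0.21 (limma, adjusted p = 0.592), without mutant 2 it was 0.046, and without the library labelled mutant 1 it was 0.086.

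Counted together, none of the 5 tested members other than Trpv6 passed the test. At an adjusted limma p under 0.05 there were 0 of 5 (0% of 16387 tested probe sets, lowest adjusted p = 0.999), and 0 of 5 at an unadjusted p under 0.05, where 3.53% of all tested probe sets were. S100g was the 1 of 5 whose groups did not overlap, on the lower side; of all tested probe sets 8.55% did not overlap, 3.38% on the lower side. Of the 5, 2 had a higher and 3 a lower mutant mean, with a median difference of −0.016 against 0.0063 over all tested probe sets.

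Other genes of calcium handling, listed by role, were near the background as well. Of 67 genes, 60 had a probe set and 43 were bright enough to test, with 22 higher and 21 lower and a median difference of 0.017. At an unadjusted limma p under 0.05 there were 2, both higher (2.25% of all tested probe sets were higher and 1.28% lower at that p), and 0 passed the adjusted test. Groups did not overlap for 3 of 43, all on the higher side (5.17% of all tested probe sets).

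Both genes under that p were partners of the TRPV channels, where 8 of 13 tested had a higher mutant mean. Slc9a3r2 (NHERF2), a scaffold that ties membrane proteins to the cytoskeleton, read 6.49, 6.63 and 6.69 in wild type and 6.80, 6.96 and 6.86 in the mutant libraries. All mutants lay above all wild types, by a log2 difference of 0.27 (limma, SE 0.089, adjusted p = 0.999; exact two-sided permutation p = 0.1). It was 0.21 without wild type 1 and 0.22 without mutant 2, and in both cases it was no longer among the genes at an unadjusted p under 0.05. S100a10, which with annexin A2 carries TRPV5 and TRPV6 to the cell surface, read 10.87, 11.06 and 10.73 in wild type and 11.06, 11.16 and 11.19 in the mutant libraries. Wild type 2 and the library labelled mutant 1 nearly met, and the difference was 0.25 (limma, SE 0.10, adjusted p = 0.999; exact two-sided permutation p = 0.1). It was no longer at an unadjusted p under 0.05 on leaving out any single library except wild type 2, and it was smallest, at 0.17, without wild type 3. The mean of 7 endothelial markers was also higher in the mutant group, but by library its groups overlapped. Relative to the wild-type mean it was 0.12, 0.31 and 0.55 in the mutant libraries and −0.090, 0.19 and −0.10 in wild type. Singly, Kdr (0.40), Tek (0.29), Tie1 (0.28) and Erg (0.38) had higher mutant groups that did not overlap wild type (limma, adjusted p = 0.999 for each). The groups of Pecam1, Cdh5 and Emcn overlapped. Of all tested probe sets 8.55% did not overlap, 5.17% on the higher side. The list mean was highest in mutant 3, as was S100a10 (11.19), while Slc9a3r2 was highest in mutant 2 (6.96). The part of endothelial content in either gene's level was not tested. Anxa2, the annexin itself, read 9.07 in wild type 2 and 9.09 in mutant 3 against 7.73 to 8.47 elsewhere. Calm2 and Calm3, calmodulin genes, differed by 0.066 and 0.020.

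In the other roles 0 genes were under an unadjusted limma p of 0.05. All 3 tested TRPV relatives had lower mutant means. Among them Trpv2, a channel of macrophages and other cells, read 6.28 in wild type 2 and 4.87 to 5.17 elsewhere (difference −0.45, exact two-sided permutation p = 0.4; −0.034 without wild type 2), and Trpv4, an osmosensitive channel, differed by −0.038. All 3 buffers with a probe set, Calb2, Pvalb and Ocm, were dim, which left S100g as the only calcium buffer on the lists above the limit. Of the further calcium pumps and exchangers 6 of 10 were tested, 3 on each side, with Slc8a2 at 0.20 (exact two-sided permutation p = 0.3) and Slc24a5 at −0.19 (p = 0.2). Slc8a2 was at 0.089 without the library labelled mutant 1 and at 0.31 without mutant 2, and Slc24a5 at −0.070 without wild type 2. Store genes were higher for 7 of 10. Orai1, the pore of store-operated entry, read 5.83, 5.89 and 6.06 in wild type and 6.07, 6.16 and 6.08 in the mutant libraries (difference 0.18, exact two-sided permutation p = 0.1), and Itpr2, a calcium release channel, differed by 0.18 (p = 0.3), or by 0.085 without wild type 3 and 0.12 without the library labelled mutant 1. The limma adjusted p was 0.999 for each of these genes.

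Hormone genes gave low signals or small differences. Pth itself was dim (1.66 to 1.78), and Pthlh, the gene of its related peptide, had no probe set of its own. The tested Casr, the calcium-sensing receptor, and Fgf23, a phosphate hormone, differed by −0.060 and −0.062. Cyp27b1 and Cyp2r1, which activate vitamin D, were dim. Cyp27a1, on the same list, was above the limit at 4.87 to 5.35 and differed by −0.036. Rxra and Rxrb, the partners with which VDR binds DNA, differed by 0.089 and −0.039. Lrp2 and Cubn, the endocytic receptors that take up vitamin D with its carrier, were bright at 10.13 to 10.61 and 11.97 to 12.33, and differed by 0.065 and 0.018. The 3 tested claudins of the paracellular route differed by −0.0067 to 0.065, among them Cldn12 at 0.065 and Cldn19 at −0.0067, with Cldn2 at 8.78 to 9.25 over the 6 libraries.

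**Figure D3:**
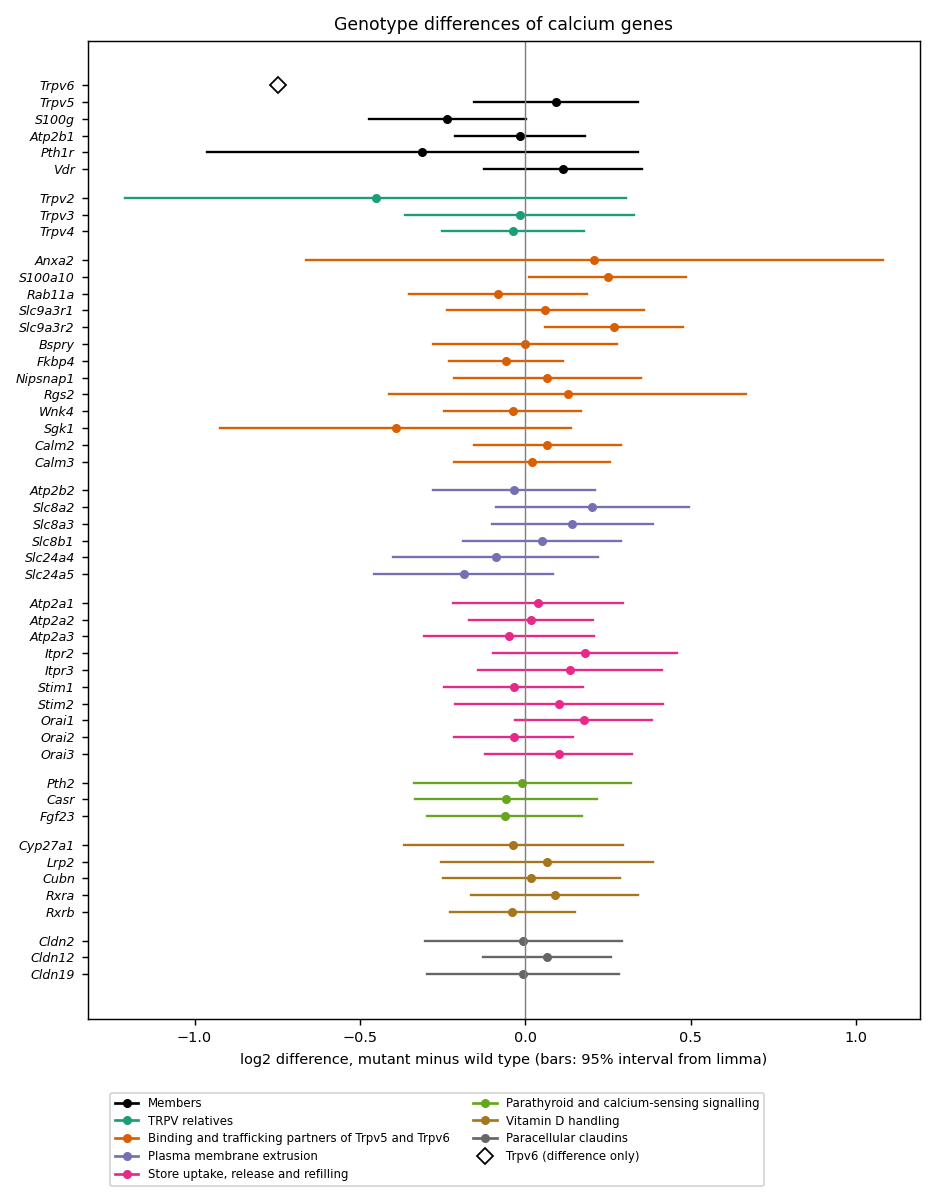
Log2 difference between mutant and wild-type means (x axis) with its 95% limma interval for the 5 tested members and the 43 tested genes of the wider list, coloured by role; Trpv6 is an open diamond without an interval. Only the intervals of S100a10 and Slc9a3r2 leave out 0, that of S100g ends at 0.00080, and those of Pth1r and Trpv2 are wide.

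Ephb6 and Trpv5, the genes directly beside Trpv6, had overlapping groups. Of the 5 protein-coding genes on either side in RefSeq order on chromosome 6, 8 had a probe set and 4 were tested. Ephb6, an Eph receptor without kinase activity and the next gene on the far side from Trpv5, read 5.04 to 5.25 in wild type and 5.12 to 5.27 in the mutant libraries (log2 difference 0.076, limma adjusted p = 0.999, exact two-sided permutation p = 0.4). Kel, the Kell blood group protease of red cells, read 8.10, 8.05 and 8.21 in wild type, 7.96 in the library labelled mutant 1, and 7.05 and 7.94 in mutants 2 and 3. Among the 4 tested neighbours only Kel had groups that did not overlap, with mutant 2 far the lowest. Of all tested probe sets 8.55% did not overlap, 3.38% on the lower side. The Kel difference was −0.47 (limma adjusted p = 0.999, exact two-sided permutation p = 0.1), and −0.17 without mutant 2. In mutant 2 all 8 primitive erythroid markers, Kel among them, were at their lowest, with a list mean of −0.74 relative to wild type against −0.081 and −0.11 in the other mutant libraries. Trpv6 read 4.72 and 4.67 in mutants 2 and 3, and the part of red cell content in either gene's level was not tested. Gm5771, a predicted gene, differed by 0.16 (exact two-sided permutation p = 0.3), and the other 4 neighbours with a probe set were dim.

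**Figure D4:**
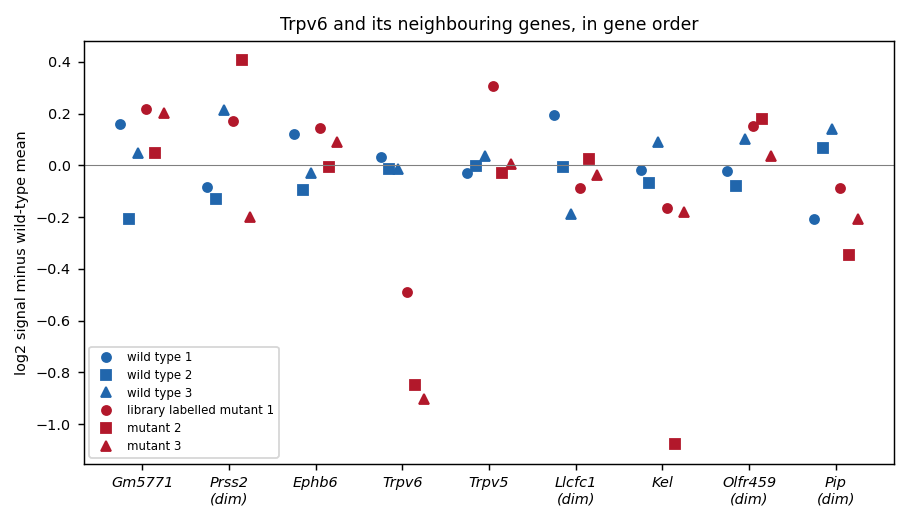
Log2 signal minus the wild-type mean (y axis) for Trpv6 and the 8 neighbouring genes with a probe set, in gene order along chromosome 6 (x axis), with wild types in blue and mutant libraries in red. For Trpv6 all 3 mutant libraries lie below the wild types, for Kel mutant 2 lies far below the rest, and Ephb6 and Trpv5 overlap.

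The 10 genes whose profile over the 6 libraries was most like that of Trpv6 were Itga7, Cep164, Itpripl2, Eya2, Aph1a, Pnpla7, Gfm2, Josd2, Slc19a1 and Atp1b2, with Pearson's r from 0.991 down to 0.963. They were picked as the highest of 16387 probe sets less those with several symbols, over 6 libraries that share the genotype contrast which chose Trpv6, so the values are a description. All 10 had the library labelled mutant 1 between the wild types and the other mutants. Itga7, a laminin-binding integrin, read 5.04, 5.03 and 4.97 in wild type and 4.80, 4.67 and 4.67 in the mutant libraries. Itpripl2 had the widest difference, −0.89, and Gfm2 the narrowest, −0.15. None of the 10 was on the calcium lists. Those held only 43 wider genes and 5 members other than Trpv6 among 14068 tested symbols, so this says little. For S100g the 5 nearest profiles were those of Gm4988, Dctn3, Tvp23b, A730017L22Rik and Afg3l1 (r from 0.990 to 0.966), each lowest in the library labelled mutant 1, and none of them was among the 10 nearest to Trpv6. S100g and Trpv6 themselves had r = 0.53, and both traits go with how the genes were picked.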

How the data were processed

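Total RNA of 6 yolk sacs was profiled on Affymetrix arrays, with groups taken from the sample titles. The deposited table holds the authors' processed log2 signals. MAS5 is the only tool in the submitters' processing notes; background step, probe summary, normalization and genome build are not stated. The log base was read from the values (0.66 to 13.7). At most 122 values were identical between a pair of arrays. GEO's platform annotation gave 21789 probe sets 1 symbol, 1621 several and 12147 none. The 16387 with any symbol and a mean of at least the 30th percentile (4.29) were fitted with limma 3.58.1 (R 4.3.3; lmFit and eBayes, no block, 4 residual and 3.47 prior degrees of freedom) and Benjamini-Hochberg adjusted together, at 0.05. The median 95% interval was ± 0.24. Exact permutation tests had 20 assignments. The script was tested on simulated data. A gene's brightest probe set stood for it. Every member was described. Of each wider sub-list, the genes at an unadjusted p under 0.05, or else the 2 with the lowest, were named by rule; further genes there were chosen after their values were seen. Members and lists were chosen with earlier results of these data known. Promoters and gene order are RefSeq's (GRCm38.p6). Alternatives covered normalization, dim filters, variance models, array weights, the test named by the submitters, a replicate block, an Xist covariate, left-out arrays and averaging probe sets by gene.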

Additional observations from a re-analysis of the deposited data

How the results depend on the processing

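Under 17 alternatives (fewer for genes near the dim limit, which the 50th percentile filter removes, Trpv5 and Trpv6 among them), the Trpv6 difference stayed between −0.88 and −0.67 and that of S100g between −0.31 and −0.13. The cause of the shifts below was not tested. The count of tested probe sets past the adjusted threshold was 0 in 16 alternatives and 1 with wild type 2 left out together with mutant 1 (the library so labelled). The count at an unadjusted p under 0.05 (579) was 1086 with array weights, 1173 without that pair and 395 to 1372 when 1 library was left out, the highest without mutant 3. Among members other than Trpv6 that count of 0 became 1, S100g, with the 50th percentile filter, with an intensity trend and robust variances, and with the replicate block (limma, adjusted p = 0.987), and was 0 to 1 when 1 library was left out. In the wider list the count of 2 became 1 with the methods' t-test, with the replicate block and with the Xist covariate, and was 0 (without wild type 1) to 4 (without mutant 3) when 1 library was left out. Same-numbered arrays deviated from their group means with r = 0.448, 0.146 and −0.107, so the numbers were not taken to pair the samples; under the replicate block 727 probe sets had an unadjusted p under 0.05. On leaving out that pair the sign turned for Trpv5 (−0.016), Slc8a1 (0.14), Pth1r (0.032), Rxra (−0.039) and Ephb6 (−0.0048), and for Atp2b1 it turned with quantile normalization (0.0062) and array weights (0.0077). With 1 library left out the sign turned for Trpv5 (−0.014 to 0.16), Atp2b1 (−0.069 to 0.037), Slc8a1 (−0.12 to 0.13), Pth1r (−0.50 to 0.056), Fgf23 (−0.14 to 0.011), Casr (−0.14 to 0.045), Rxra (−0.0036 to 0.18) and Cldn19 (−0.12 to 0.082).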
